A study of Mus musculus with 4 samples.

Results

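The cells described here were lymph node stromal cells that carried Ccl19 together with some of 8 further genes, most often Slc7a11. They were chosen by a gate on raw counts of unique molecular identifiers (UMIs, 1 per captured transcript) in single-cell RNA sequencing. A cell entered the gate with at least 1 UMI of Ccl19 and at least 2 detected genes among 8, namely Stc2, Il13ra2, Slc7a11, Brinp1, Cntn1, Plppr1, Fabp7 and Csmd2. Cells with more than 2 UMIs of Cxcl9, more than 3 of Ptgs2 and Il6 together, or any of Pecam1 or Ptprc were left out. Of 46638 cells kept across 4 libraries, 3486 were in the gate. The 21743 other Ccl19-positive cells, which met the same exclusions with 0 or 1 of the 8 genes, were the population set against them. The gate was drawn from these same measurements, so the levels of its genes are described without a test.

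The study, by its title, asks how signals through Notch2 shape fibroblasts and the places where T cells live. Both N2KO libraries combined floxed Notch2 alleles (Notch2 fl/fl) with Ccl19-Cre, a recombinase driven by the Ccl19 promoter, and N2KO 1 also carried the R26R-EYFP reporter. WT 1 carried Ccl19-Cre with R26R-EYFP and no floxed Notch2, whereas WT 2 carried Notch2 fl/fl alone, so no Cre was present in that control although its title names Ccl19-Cre. Batch 1 (N2KO 1 and WT 1) pooled 6 mice per library, not littermates, and batch 2 (N2KO 2 and WT 2) pooled 3 littermates per library. All mice were C57BL/6 females aged 12 weeks. Axillary, brachial and inguinal nodes were digested, depleted of CD45+ cells and sorted for live CD45- CD31- cells. Each library counts as 1 replicate, so there were 2 per genotype. P-values reflect how much the difference within a batch, or between populations within a library, varied across these pooled libraries. Cre acts in whichever cells use the Ccl19 promoter, so deletion in this design is not limited to the gated cells.

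T-zone reticular cells are fibroblasts that build the conduit network of the T cell area and release the chemokines Ccl19 and Ccl21, which guide T cells and dendritic cells. Reticular cells differ by position, and those around blood vessels stand next to the places where lymphocytes enter and leave. In the Notch pathway a ligand on one cell (Jagged or Delta-like) triggers cleavage of a receptor on its neighbour, and the freed receptor fragment joins the DNA-binding protein RBPJ to switch on genes such as Hes1, Heyl and Hey2.

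The gate held 353 of 7817 cells kept in N2KO 1, 987 of 9053 in WT 1, 964 of 12754 in N2KO 2 and 1182 of 17014 in WT 2. Gated cells were deeper than the other Ccl19-positive cells in every library. Their median was 4074 against 2988 UMIs in N2KO 1, 2656 against 2033 in WT 1, 11364 against 7305 in N2KO 2 and 7818.5 against 5224.5 in WT 2. Only 1 cell barcode of gated cells was shared between libraries (WT 1 and WT 2). The gate took 4.52% of cells in N2KO 1 (exact 95% interval 4.07 to 5.00%) and 10.9% in WT 1 (10.3 to 11.6%). In batch 2 it took 7.56% in N2KO 2 (7.11 to 8.03%) and 6.95% in WT 2 (6.57 to 7.34%). After each cell was thinned to 1500 UMIs the shares were 1.55% in N2KO 1, 8.83% in WT 1, 2.00% in N2KO 2 and 4.90% in WT 2, with 509, 1497, 224 and 598 shallower cells left out of these libraries. In thinned counts the share was lower in N2KO in both batches, whereas in batch 2 the unthinned share was not. The gate genes may themselves differ between genotypes, so the shares were not tested, and intervals cover counting error only.

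**Figure D1:**
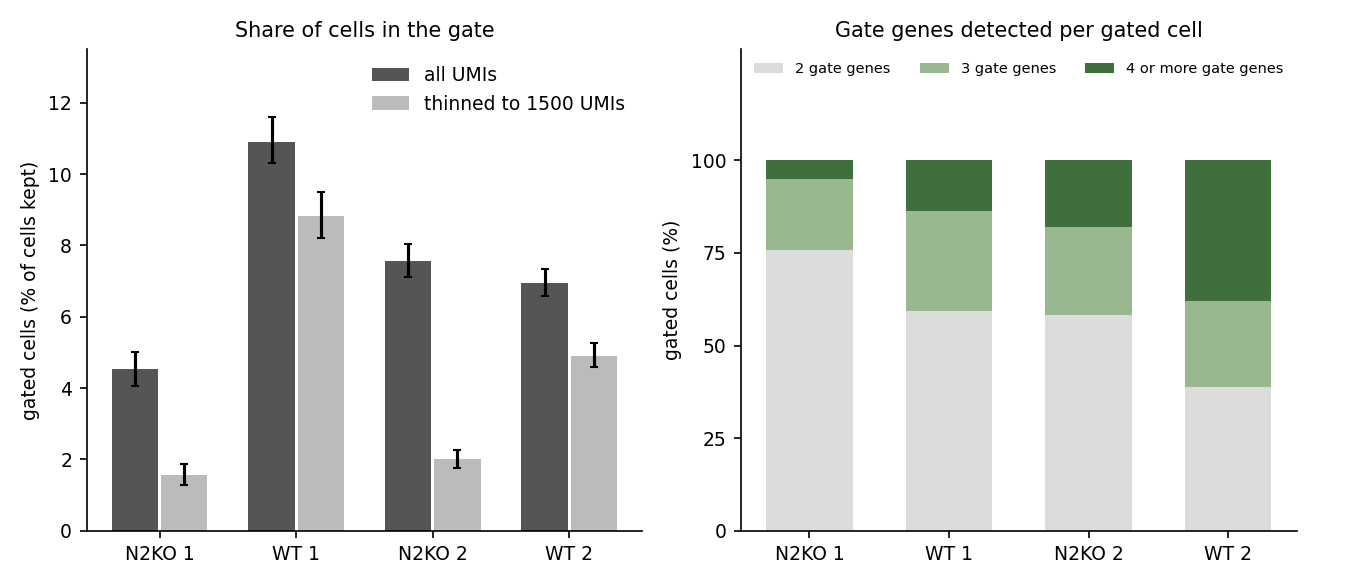
Left, gated cells as a percentage of cells kept in each library, with all UMIs (dark bars) and after thinning each cell to 1500 UMIs (light bars), and exact 95% binomial intervals. Right, the percentage of gated cells with 2, 3 or 4 or more of the 8 gate genes. Cells with 4 or more made up 5.10% in N2KO 1, 13.7% in WT 1, 18.0% in N2KO 2 and 38.0% in WT 2.

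The gate rested mainly on Slc7a11, the cystine transporter that feeds glutathione synthesis, which was detected in 81.9% of gated cells in N2KO 1, 88.1% in WT 1, 79.7% in N2KO 2 and 86.5% in WT 2. Stc2, a secreted stanniocalcin glycoprotein, was next in 3 libraries, at 43.9% in N2KO 1, 60.5% in WT 1 and 56.3% in WT 2, while in N2KO 2 it was detected in 37.3% and Csmd2 in 52.0%. Il13ra2, the decoy receptor for interleukin 13, was found in 22.4% of gated cells in N2KO 1, 26.1% in WT 1, 22.3% in N2KO 2 and 35.2% in WT 2. N2KO cells sat closer to the edge of the gate. Exactly 2 gate genes were seen in 75.9% of gated cells in N2KO 1 against 59.3% in WT 1, and in 58.2% in N2KO 2 against 38.8% in WT 2. Without Slc7a11 among the genes counted, 40.2% of gated cells would remain in N2KO 1, 49.1% in WT 1, 58.0% in N2KO 2 and 71.7% in WT 2.

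Ccl19 itself was widespread in the sort. It had at least 1 UMI in 76.9% of kept cells in N2KO 1, 87.0% in WT 1, 81.7% in N2KO 2 and 87.1% in WT 2. In batch 2 it was also seen in 48.1% of cells with pericyte markers in N2KO 2 (median 4629 UMIs) and 65.2% in WT 2 (median 4138 UMIs). Their Ccl19 level was 300 CPM (a gene's share of all UMIs of the summed population, scaled to a fixed total) in N2KO 2 and 489 in WT 2, against 2563 and 6577 CPM in gated cells of these libraries. Cells with 2 or more gate genes were also found among cells marked as other types. They made up 0.697% of pericyte-marked cells in N2KO 2 and 2.42% in WT 2, and 1.61% of Schwann-marked cells in N2KO 2 and 11.5% in WT 2. Among leukocyte-marked cells, whose median was 7440.5 UMIs in N2KO 2 and 5278 in WT 2, cells with 2 or more gate genes made up 8.72% in N2KO 2 and 10.4% in WT 2. After the same thinning these shares were 0.297% in N2KO 2 and 3.78% in WT 2. How much of this was free RNA, doublets or expression was not tested.

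The name first given to these cells, perivascular-type T-zone reticular cells, was held against marker genes. T-zone markers were abundant in the gate. Ccl21a, a T-zone chemokine whose counts cannot be separated from those of near-identical gene copies, stood at 15898 CPM in N2KO 1, 19110.5 in WT 1, 18864 in N2KO 2 and 17508 in WT 2. Pdgfra, a fibroblast receptor, was at 913 CPM in N2KO 1, 315 in WT 1, 491 in N2KO 2 and 319 in WT 2. Pericyte-marked cells were chosen for carrying at least 2 of Higd1b, Cox4i2 and Ndufa4l2 and no Pdgfra, Pecam1 or Ptprc. Pericyte genes were mixed. Higd1b was at 0 CPM in N2KO 1 and WT 1, 0.618 in N2KO 2 and 1.34 in WT 2, against 127 and 134 CPM in pericyte-marked cells of N2KO 2 and WT 2. Cox4i2 was at 0 in N2KO 1, 0.358 in WT 1, 1.06 in N2KO 2 and 3.19 CPM in WT 2, against 319 and 286 CPM in those pericyte-marked cells of N2KO 2 and WT 2. The high levels of Higd1b and Cox4i2 in pericyte-marked cells follow from how those cells were chosen. Kcnj8, a potassium channel subunit, was at 34.7 CPM in N2KO 1, 37.2 in WT 1, 58.8 in N2KO 2 and 55.4 in WT 2, and its partner Abcc9 at 182 in N2KO 1, 134 in WT 1, 215 in N2KO 2 and 235 CPM in WT 2. Neither gene was used to choose the pericyte-marked cells. Both lay below those cells, which had 398 CPM of Kcnj8 and 889.6 of Abcc9 in N2KO 2, and 205 CPM of Kcnj8 and 676 of Abcc9 in WT 2. The pericyte list summed to 888 CPM in N2KO 1, 1353 in WT 1, 886 in N2KO 2 and 1446 in WT 2, most of it from Rgs5, a regulator of G protein signalling. The cells are called gated reticular cells here. Where they lay in the node, around vessels or elsewhere, was not measured.

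Gated cells differed from other Ccl19-positive cells of the same libraries in a broad set of genes outside the gate. Higher were the addressin Madcam1, the fibril-associated collagen Col14a1, and genes best known from neurons such as Tenm4, Dab1 and Pianp. Lower were the enzymes Inmt and Cyp2f2, the hormone gene Stc1, the adventitial marker Cd34, and the secreted factors Ptn, Fst and Fgf10. Of 14952 genes tested, 1087 were higher and 1391 lower in gated cells at a Benjamini-Hochberg adjusted p under 0.05 (edgeR, quasi-likelihood, each library a block). That is 16.6% of genes tested (7.27% higher and 9.30% lower), with a median log2 difference of -0.01 over all of them. The block matters here, since without it 7 genes passed (357 higher and 511 lower before adjustment). Without WT 2 the test called 601 higher and 692 lower.

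Madcam1, which binds the lymphocyte integrin α4β7, was at 26.8 CPM in gated against 2.86 in other cells of N2KO 1, 81.3 against 8.48 in WT 1, 11.7 against 3.85 in N2KO 2 and 62.6 against 8.09 in WT 2. It was higher in all 4 libraries (log2 2.73, SE 0.23, edgeR adjusted p = 3.98e-05). Other large increases were seen for Frmd5 (log2 2.33), Fat3 (2.24), the matrix glycoprotein Thbs4 (2.22), Tenm4 (2.18), Ly6i (2.07), Dab1 (2.06), Igfbp2 (1.96), which binds insulin-like growth factors, and Pianp (1.87). Ly6i belongs to a family of similar genes whose reads could be split between members.

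The 10 largest decreases were Igkc, the immunoglobulin kappa constant region made by plasma cells (log2 -3.95), Cyp2f2 (-3.14), Inmt (-2.96), Stc1 (-2.85), Ptn (-2.77), Fst (-2.70), Fgf10 (-2.67), the chloride channel Ano1 (-2.65), Negr1 (-2.56) and the matrix protein Fbln1 (-2.49). Their adjusted p in this edgeR test ran from 1.20e-07 for Ano1 to 0.00168 for Igkc. Inmt, a methyltransferase, was at 26.2 CPM in gated against 217 in other cells of N2KO 1, 39.0 against 320.4 in WT 1, 55.0 against 514 in N2KO 2 and 67.8 against 421 in WT 2. Its gated and other values did not overlap, but how many of all genes tested did so was not counted. Stc1, the paralogue of the gate gene Stc2, averaged 14.7 ± 7.83 CPM in gated and 102 ± 57.5 in other cells (SD, n = 4 libraries), and was thus lower in the cells that the gate chose partly by Stc2.

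**Figure D2:**
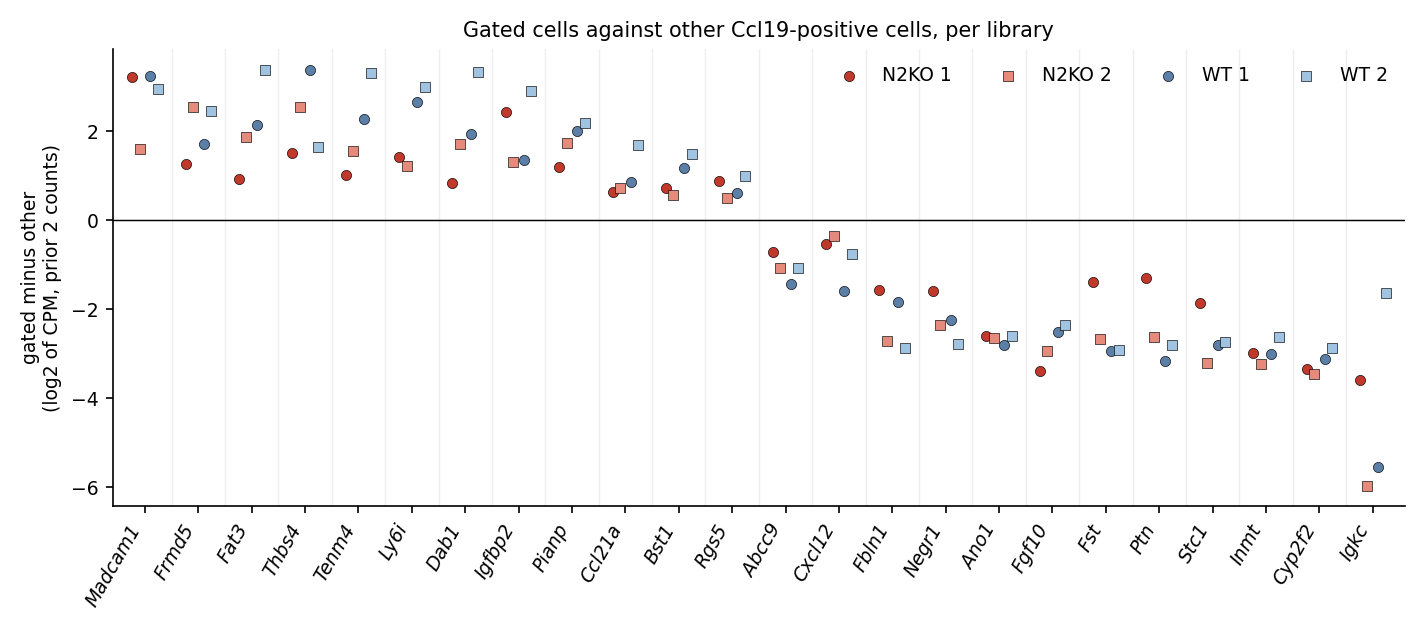
Log2 level of each gene in gated cells minus other Ccl19-positive cells (vertical axis, CPM with a prior of 2 counts), 1 point per library (red N2KO, blue WT, circles batch 1, squares batch 2). Every plotted gene has 1 sign in all 4 libraries, and Madcam1 lies between 1.61 and 3.24.

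Genes that serve the T-zone role of reticular cells were partly higher in the gate. Of 14 measured T-zone factors outside the gate, 4 were higher and 1 lower, with a median of 0.06. Over all genes tested 7.27% were higher and 9.30% lower. Ccl21a was higher in all 4 libraries (log2 0.98, SE 0.16, edgeR adjusted p = 0.00266), at 15898 CPM in gated against 10188 in other cells of N2KO 1, 19110.5 against 10492 in WT 1, 18864 against 11410.1 in N2KO 2 and 17508 against 5436 in WT 2. Bst1, a stromal ectoenzyme, averaged 499 ± 74.0 CPM in gated and 257 ± 68.6 in other cells (SD, n = 4). Pdpn, the podoplanin gene, averaged 139 ± 25.4 against 103 ± 28.4 CPM and Vcam1 differed by 0.32 on the log2 scale. Cxcl12, which retains lymphocytes and their precursors, was lower in the gate, at 3148 ± 1136 against 5389 ± 1417 CPM (log2 -0.80). Il7, the T cell survival cytokine, averaged 221 ± 30.7 CPM in gated and 176 ± 40.7 in other cells and did not pass (log2 0.37, edgeR adjusted p = 0.143).

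Markers of other stromal types differed in both directions, where 7.27% of all genes tested were higher and 9.30% lower. Of 9 pericyte markers 5 were lower, with Abcc9 at -1.07, Kcnj8 at -0.89 and Cox4i2 at -2.25, the median was -0.89, and Rgs5 alone was higher. Rgs5 was at 605 CPM in gated against 327 in other cells of N2KO 1, 923 against 599 in WT 1, 549.7 against 386 in N2KO 2 and 913 against 460.3 in WT 2 (log2 0.76, SE 0.09, edgeR adjusted p = 0.000473). Of 6 marginal reticular markers 5 were lower, among them the cytokine Tnfsf11 (RANKL, log2 -2.44) and the B cell chemokine Cxcl13 (-1.21), and Madcam1 alone was higher. The call for Cox4i2 was lost after thinning (adjusted p = 0.0971, same edgeR test), and that for Cxcl13 with DESeq2 (adjusted p = 0.075). Of 8 adventitial markers 4 were lower, with Cd34 at -1.98, and 1 was higher. Follicular dendritic markers went the other way, with 3 of 5 measured higher, 0 lower and a median of 0.88. Their summed level was 8076 CPM in gated against 5493 in other cells of N2KO 1, 8433 against 3639 in WT 1, 6937 against 5257 in N2KO 2 and 6848 against 2808 in WT 2. Most of it was Clu, the chaperone clusterin, at 7498 ± 827 CPM in gated and 4229 ± 1297 in other cells (SD, n = 4, log2 0.88), while the complement receptor gene Cr2 averaged 19.7 ± 26.5 and 13.7 ± 19.1 CPM. The part of follicular dendritic cells in these differences was not tested.

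Adhesion, guidance and matrix genes split in both directions, where 7.27% of all genes tested were higher and 9.30% lower. Of 6 measured addressin and adhesion genes 4 were higher and 0 lower, with a median of 0.93. They were Madcam1, Vcam1, the inhibitory ligand Cd200 (log2 1.54) and Glycam1, an L-selectin ligand (1.97). Without WT 1 or without WT 2 Glycam1 no longer passed, at 1.57 and 1.47. Of 18 axon guidance genes 4 were higher and 8 lower. The guidance receptor Robo2 averaged 507 ± 390.3 CPM in gated and 195 ± 153 in other cells (log2 1.35), while its ligand Slit3 averaged 24.5 ± 21.0 and 132 ± 117 CPM (log2 -2.39). Of 20 matrix genes 4 were higher, led by Col14a1 (1.78), and 7 lower, including Postn (-1.74). Of 10 vascular growth genes 8 were lower and 1, the placental growth factor gene Pgf (0.98), was higher. Of 17 Wnt and bone morphogenetic protein (BMP) genes 8 were lower, with the Wnt agonist Rspo3 at -2.76 and the Wnt antagonist Dkk2 at -2.68, and 1 higher.

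The partners of the gate genes themselves were tested too. Slc3a2, the heavy chain that pairs with Slc7a11, averaged 195 ± 47.3 CPM in gated and 85.1 ± 8.40 in other cells (SD, n = 4, log2 1.17, edgeR adjusted p = 6.52e-05). It was 1 of 2 genes higher and 4 lower among 12 measured cystine and glutathione genes, where 7.27% of all genes tested were higher and 9.30% lower. Among 11 interleukin 4, 13 and 1 receptor genes 3 were higher and 2 lower, led by the common gamma chain Il2rg at 24.4 ± 8.33 against 7.36 ± 0.751 CPM (log2 1.67). Plppr5, of the same lipid phosphatase-related family as the gate gene Plppr1, averaged 33.4 ± 7.48 against 14.9 ± 0.522 CPM (log2 1.20). Of 14 immediate early and dissociation genes 6 were lower and 0 higher, with Egr2 at -1.22, Nr4a1 at -0.86 and Egr1 at -0.60. The part of handling during digestion in this was not tested.

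The targeted gene was read first in the comparison of genotypes within the gate. Notch2 (ENSMUSG00000027878, mm10 chromosome 3, 98013527 to 98150361, plus strand) was at 12.4 CPM in N2KO 1 against 41.9 in WT 1, and 44.1 in N2KO 2 against 65.2 in WT 2. Both N2KO values lay below the WT value of their batch, but N2KO 2 lay above WT 1. The log2 fold change of N2KO over WT was -1.05 (SE 0.27), which missed the threshold in edgeR (quasi-likelihood, batches blocked, Benjamini-Hochberg adjusted p = 0.0873). It passed at -0.90 in cells with at least 3 gate genes (adjusted p = 0.0283, same edgeR test). The floxed exons are not given in the labels, so 3′ counts do not check the deletion.

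Notch3 and 3 of 8 measured Notch target genes fell in N2KO gated cells, where 1.36% of all genes tested fell. Some pericyte and contractile genes fell with them. Of 7 measured pericyte markers 2 fell (Notch3 itself and Ndufa4l2, at -2.15) and 0 rose, and of 10 contractile genes 2 fell (Myh11 at -1.62 and Tpm2 at -1.51) and 0 rose. After thinning Myh11 and Tpm2 were both at -0.55 and did not pass, and DESeq2 did not call Ndufa4l2 (adjusted p = 0.151). The part of pericyte or muscle RNA in these results was not tested. Notch3, a receptor gene that is also switched on by Notch signals, was at 62.8 CPM in N2KO 1 against 237 in WT 1 and 50.4 in N2KO 2 against 209.8 in WT 2 (log2 -2.07, SE 0.23, edgeR adjusted p = 0.00177). Hes1, a transcriptional repressor, was at 114 CPM in N2KO 1 against 216 in WT 1 and 45.1 in N2KO 2 against 228 in WT 2 (log2 -1.73, SE 0.34, edgeR adjusted p = 0.0268). For both genes the 2 genotypes did not overlap, but how many of all genes tested did so was not counted. Heyl was at 4.58 CPM in N2KO 1 against 21.8 in WT 1 and 3.27 in N2KO 2 against 14.9 in WT 2 (log2 -2.30, SE 0.33, edgeR adjusted p = 0.00585). Hey2 was at 11.1 CPM in N2KO 1 against 41.2 in WT 1 and 4.68 in N2KO 2 against 18.8 in WT 2 (log2 -2.04, SE 0.27, edgeR adjusted p = 0.00379). After thinning to 1500 UMIs Hes1 (-0.74) and Hey2 (-1.49) no longer passed, and Heyl (-1.18) did not pass in cells with at least 4 gate genes.

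The other 5 of the 8 target genes did not pass, and the 8 had a median of -1.36 and ranged from -2.30 to 1.63. Over all 12927 genes tested 2.88% passed (1.52% up and 1.36% down) with a median of 0.00. Of 3 measured receptors Notch3 fell, and Notch1, at 36.7 CPM in N2KO 1 against 57.3 in WT 1 and 25.5 in N2KO 2 against 44.2 in WT 2, did not pass. Among 5 ligands and Fringe enzymes, Dll4 rose, at 68.1 CPM in N2KO 1 against 7.52 in WT 1 and 43.3 in N2KO 2 against 11.3 in WT 2 (log2 2.31). Jag1 fell (log2 -0.91, edgeR adjusted p = 0.0454), and lost this call with DESeq2 (adjusted p = 0.182), after thinning, and in cells with at least 3 gate genes. None of 6 members of the RBPJ complex list passed (0 at an adjusted p under 0.05 in edgeR, median 0.01). Over all genes tested, the difference in genotype effect between gated and other Ccl19-positive cells passed for 1.65%. It passed for 0 of 4 receptors and 0 of 9 target genes, too few to show that the effects were equal. Of these, Hey2 was higher in gated cells in all 4 libraries (log2 2.20, SE 0.17, edgeR adjusted p = 2.10e-05), with 18.9 ± 15.9 CPM against 3.89 ± 2.60 (SD, n = 4).

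**Figure D3:**
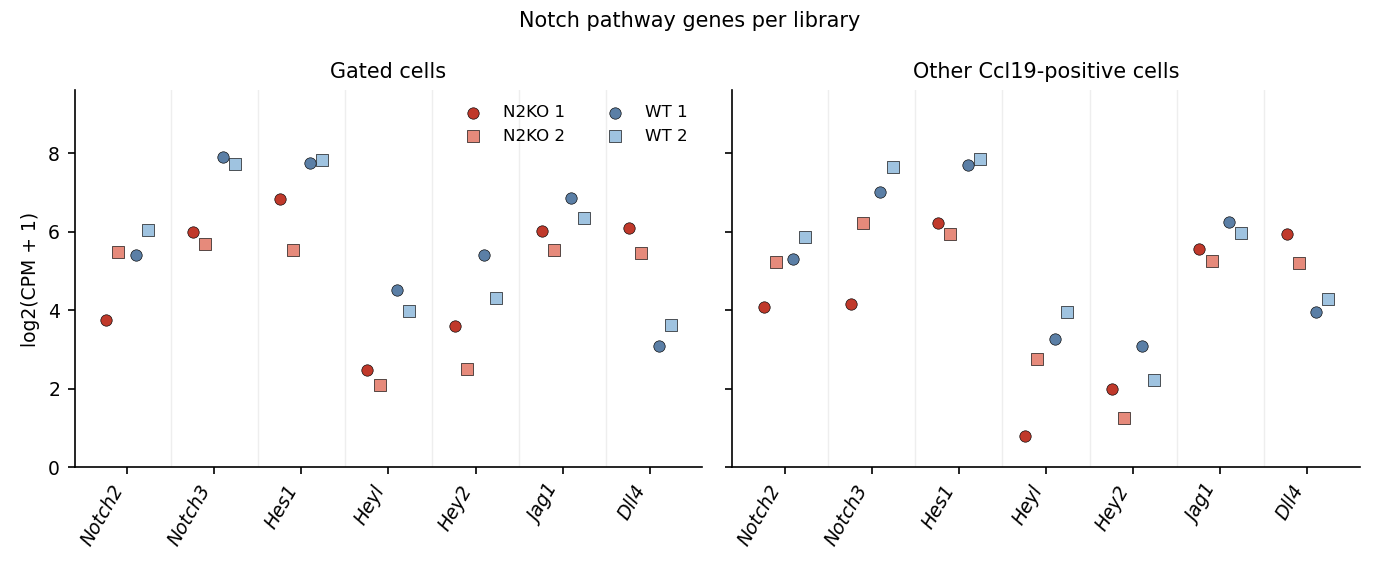
Levels of Notch pathway genes (vertical axis, log2 of CPM + 1) in gated cells (left) and other Ccl19-positive cells (right), 1 point per library, red N2KO and blue WT, circles batch 1 and squares batch 2. In gated cells Notch3, Hes1, Heyl and Hey2 have both N2KO points below both WT points, and Dll4 has them above. The share of all genes tested with such a separation was not counted.

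The Hey2 promoter is shown because Hey2 was the Notch target both higher in the gate and lower in N2KO. It spans 250 bases before to 50 after the gene start (RefSeq, GRCm38.p6, chr10:30842734-30843033, minus strand), is read 5′ to 3′ along the gene, and has matches to TGGGAA, the RBPJ core, in capitals on either strand.
Hey2: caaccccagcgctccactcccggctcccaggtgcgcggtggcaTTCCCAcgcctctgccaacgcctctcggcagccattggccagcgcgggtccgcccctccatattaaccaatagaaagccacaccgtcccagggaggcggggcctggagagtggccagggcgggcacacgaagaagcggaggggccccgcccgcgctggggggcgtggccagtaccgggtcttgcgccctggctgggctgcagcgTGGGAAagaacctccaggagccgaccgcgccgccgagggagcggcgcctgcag
It held 2 matches, as did or exceeded 3.79% of the 32851 promoters of the same length in the table, and 25.6% held at least 1. The Notch3 promoter held 0. A match is a string of letters and not a measured binding site.

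Beyond the Notch pathway, 196 genes rose and 176 fell in N2KO gated cells at the same threshold and in the same edgeR fit. The largest increases included matrix and adhesion genes. Among the largest decreases were a gene of lipid handling (Apoc1), a gene of retinoid handling (Lrat) and genes of growth factor signals. Of the 372 genes, which were of any level, 365 had 1 sign in both batches. Of all 6477 tested genes at 20 CPM or more, 61.7% did so. Genes whose batches differ in sign seldom pass a blocked test, so the first count is no separate replication. Without the block 0 genes passed (248 up and 232 down before adjustment, p under 0.05), and 131 up and 90 down were called by DESeq2 with the block. With 3 libraries and no block the count was 0 without N2KO 1, WT 1 or WT 2 in turn and 2 without N2KO 2.

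Adamtsl2, which binds matrix microfibrils, was at 70.7 CPM in N2KO 1 against 0 in WT 1 and 27.6 in N2KO 2 against 0.514 in WT 2, with 0 and 5 UMIs behind the values of WT 1 and WT 2. A2m, a protease inhibitor, was at 64.2 CPM in N2KO 1 against 1.07 in WT 1 and 36.2 in N2KO 2 against 0.411 in WT 2. The fitted log2 fold changes, 6.42 (SE 0.50) for Adamtsl2 and 6.10 (SE 0.36) for A2m, rest on these few WT counts. Cilp (ENSMUSG00000042254, mm10 chromosome 9, 65265180 to 65280605, plus strand), a cartilage matrix protein, was at 759 CPM in N2KO 1 against 27.9 in WT 1 and 463 in N2KO 2 against 36.9 in WT 2 (log2 4.10, SE 0.35, edgeR adjusted p = 0.000846). All 3 genes were picked from these libraries as marks of a reticular state after Notch2 loss, so their rise in the gate is no independent support for it.

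Smoc2, a calcium-binding matrix protein, was at 172 CPM in N2KO 1 against 3.94 in WT 1 and 78.1 in N2KO 2 against 3.08 in WT 2 (log2 4.87, SE 0.29, edgeR adjusted p = 0.000117). Ncam1, a neural cell adhesion molecule, was at 111 CPM in N2KO 1 against 0.716 in WT 1 and 122 in N2KO 2 against 6.17 in WT 2 (log2 4.76, SE 0.42). Cxcl14, a chemokine, was at 81.8 CPM in N2KO 1 against 5.01 in WT 1 and 58.8 in N2KO 2 against 4.94 in WT 2 (log2 3.65, SE 0.26). Its call was lost in cells with at least 4 gate genes (log2 1.32, edgeR adjusted p = 0.13). The protease Adamts15 (3.62), Ecrg4 (3.45), the neuronal receptor-like gene Lingo2 (3.22) and Megf6 (3.21) completed the 10 largest increases. Lingo2 differed widely between batches, at 9.82 CPM in N2KO 1 against 0.358 in WT 1 and 177 in N2KO 2 against 18.8 in WT 2. Within each batch it was higher in N2KO. When N2KO 2 was left out it stood at -0.05, in a fit without the batch term that set N2KO 1 against both WT libraries.

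Among the decreases, Igfbp2 was at 17.0 CPM in N2KO 1 against 185 in WT 1 and 31.7 in N2KO 2 against 206 in WT 2 (log2 -3.07, SE 0.25, edgeR adjusted p = 0.000758). Igfbp2 was also higher in gated than in other cells. Frmd5 (log2 -3.36), the apolipoprotein Apoc1 (-2.88), the Cxcl12 receptor Cxcr4 (-2.71), the retinol esterifying enzyme Lrat (-2.70), the neurotrophin receptor Ntrk2 (-2.56), the netrin relative Ntng1 (-2.51), the growth factor Tgfb2 (-2.41) and the noncoding RNA Meg3 (-2.39) were also among the largest decreases. After thinning Lrat (-1.09) and Ntng1 (-1.59) no longer passed. Of the 176 genes that fell, 78 were higher and 27 lower in gated than in other cells. Of the 196 that rose, 45 were higher and 42 lower. Over all genes tested 7.27% were higher and 9.30% lower in gated cells. The overlaps were not tested, nor compared among genes of equal level. The 2 comparisons share the gated libraries.

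**Figure D4:**
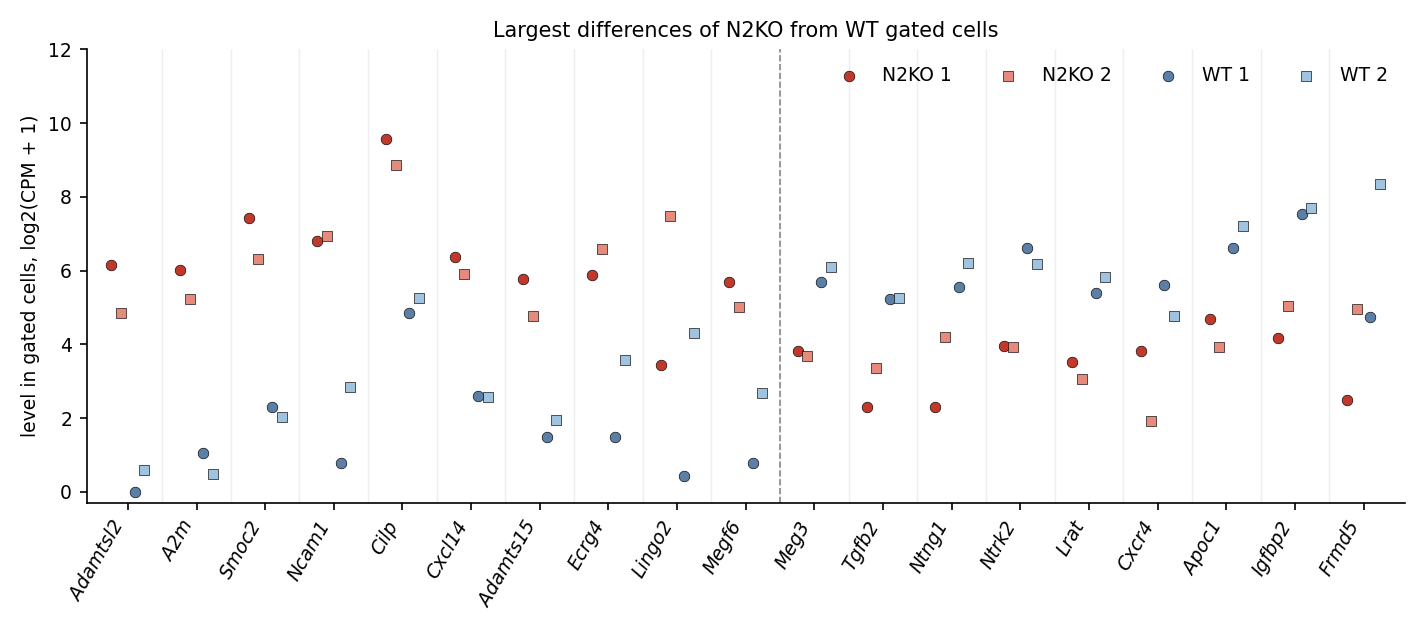
Levels in gated cells (vertical axis, log2 of CPM + 1) of 10 genes with large increases (left of the dashed line) and 9 with large decreases in N2KO, 1 point per library, red N2KO and blue WT, circles batch 1 and squares batch 2. Cilp was at 759 and 463 CPM in N2KO 1 and N2KO 2, against 27.9 and 36.9 CPM in WT 1 and WT 2.

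Outside the gate Cilp was also higher and Igfbp2 also lower in N2KO than in the WT library of the same batch. In other Ccl19-positive cells Cilp was at 809 CPM in N2KO 1 against 37.4 in WT 1 and 407 in N2KO 2 against 43.1 in WT 2, and Igfbp2 was at 3.27 CPM in N2KO 1 against 72.0 in WT 1 and 12.7 in N2KO 2 against 27.5 in WT 2. The difference in genotype effect did not pass for Cilp (0.31, edgeR adjusted p = 0.654) or Igfbp2 (-0.69, edgeR adjusted p = 0.605).

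No T-zone factor outside the gate passed this test, where 1.52% of all genes tested rose and 1.36% fell. At those shares 0 calls among so few genes does not show that they were unchanged. Ccl19 is a gate gene and was not tested. In gated cells it was at 1634 CPM in N2KO 1 against 7279.9 in WT 1, and at 2563 in N2KO 2 against 6577 in WT 2. Of 14 measured, 0 rose and 0 fell in edgeR's test, with a median log2 fold change of 0.14 and a range of -0.85 to 1.00. Ccl21a was at 15898 CPM in N2KO 1 against 19110.5 in WT 1 and 18864 in N2KO 2 against 17508 in WT 2 (log2 -0.15, SE 0.43). Il7 was at 246 CPM in N2KO 1 against 177 in WT 1 and 232 in N2KO 2 against 231 in WT 2 (log2 0.16, SE 0.25). The values for Pdpn (0.33, SE 0.23), Cxcl12 (0.76, SE 0.34) and Rgs5 (-0.75, SE 0.27) did not pass either. Cxcl13 was at 303 CPM in N2KO 1 against 65.2 in WT 1 and 892 in N2KO 2 against 903 in WT 2, so its difference was seen in batch 1 only. It passed in cells with at least 3 gate genes (1.12, edgeR adjusted p = 0.00380) and after thinning (1.22, edgeR adjusted p = 0.00750). None of 14 immediate early and dissociation genes passed in edgeR's test, but summed they were at 31378 CPM in N2KO 1 against 19419 in WT 1 and 21528 in N2KO 2 against 19450.1 in WT 2, and their part in the results was not tested.

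Of 6 measured addressin and adhesion genes 3 fell and 0 rose, where 1.36% of all genes tested fell, and their values ranged from -2.15 to 0.35 with a median of -0.91. Madcam1 was at 26.8 CPM in N2KO 1 against 81.3 in WT 1 and 11.7 in N2KO 2 against 62.6 in WT 2 (log2 -2.15, SE 0.27, edgeR adjusted p = 0.00270). Glycam1 was at 6.55 CPM in N2KO 1 against 56.9 in WT 1 and 10.8 in N2KO 2 against 32.0 in WT 2 (log2 -2.14, SE 0.32), and Cd200 fell by 1.28 on the log2 scale, a call lost after thinning (-0.94). These 3 genes were all higher in gated than in other cells.

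Of 7 measured genes of MHC class II antigen presentation 5 rose and 0 fell, where 1.52% of all genes tested rose, with a median of 1.39. H2-Aa was at 236 CPM in N2KO 1 against 53.3 in WT 1 and 123 in N2KO 2 against 24.9 in WT 2 (log2 2.16, SE 0.21, edgeR adjusted p = 0.00112). Cd74, the class II chaperone, was at 1229 CPM in N2KO 1 against 385 in WT 1 and 939.9 in N2KO 2 against 231 in WT 2 (log2 1.78, SE 0.27, edgeR adjusted p = 0.00816). H2-Eb1 (1.87), H2-DMa (1.39) and H2-Ab1 (1.08) also rose. Cd74 was higher in N2KO outside the fibroblasts too. In pericyte-marked cells it was at 42.6 CPM in N2KO 2 (287 cells) against 24.4 in WT 2 (414 cells). In Schwann-marked cells it was at 274 CPM in N2KO 2 (62 cells) against 60.1 in WT 2 (61 cells). In leukocyte-marked cells it was at 2660.2 CPM in N2KO 1 (43 cells) against 2021 in WT 1 (10 cells). There it was at 3292 CPM in N2KO 2 (344 cells) against 1711 in WT 2 (299 cells). These differences in marked cells were not tested. Summed over 8 leukocyte markers, gated cells held 14.4 CPM in N2KO 1, 5.73 in WT 1, 7.78 in N2KO 2 and 8.86 in WT 2, with the T cell gene Cd3e at 0 in N2KO 1 and WT 1 and at most 0.265 CPM in batch 2. The part of leukocyte RNA in the rise was not tested.

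Of 15 measured Wnt and BMP genes 5 rose and 0 fell, where 1.52% of all genes tested rose, and their values ranged from -0.75 to 3.01 with a median of 0.70. Sfrp1, a secreted Wnt antagonist, was at 228 CPM in N2KO 1 against 20.0 in WT 1 and 198 in N2KO 2 against 29.3 in WT 2 (log2 3.01, SE 0.27, edgeR adjusted p = 0.000876). The others were Rspo1, a Wnt agonist (2.00), Bmp2 (1.33), Bmp3 (1.27) and Sfrp2 (1.19), so the genes that rose include both agonists and antagonists. In cells with at least 4 gate genes the call was lost for Bmp2 (edgeR adjusted p = 0.0987). Of 9 neurotrophin and pleiotrophin genes 3 fell and 0 rose, where 1.36% of all genes tested fell. They were Ntrk2, the heparin-binding factor Ptn (10.3 ± 5.30 CPM in N2KO and 45.8 ± 9.56 in WT, SD, n = 2 each, log2 -2.18) and its relative Mdk (116 ± 12.9 CPM in N2KO and 259 ± 63.2 in WT, log2 -1.21), whose call was lost in cells with at least 4 gate genes (-0.89). The median over these 9 genes was 0.23, opposite in sign to the calls.

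The number of gate genes a cell carried ordered many of these levels. Just inside the gate, at 2 genes, Madcam1 was at 19.4 CPM in N2KO 1, 62.2 in WT 1, 5.49 in N2KO 2 and 28.1 in WT 2. Just outside, at 1 gene, it was at 6.66 CPM in N2KO 1, 25.7 in WT 1, 2.68 in N2KO 2 and 10.4 in WT 2. Cells at the edge differed less from their neighbours in Ccl21a, with 15095 against 13407 CPM in N2KO 1, 19068 against 17250 in WT 1, 17466 against 14636 in N2KO 2 and 14555 against 8149.7 in WT 2 for 2 genes against 1.

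Among cells with 4 or more gate genes the genotypes still differed. Cilp was at 447 CPM in N2KO 1 (18 cells) against 24.8 in WT 1 (135 cells) and 302 in N2KO 2 (174 cells) against 25.1 in WT 2 (449 cells). Notch3 in these cells was at 196 CPM in N2KO 1 against 266 in WT 1 and 114 in N2KO 2 against 248 in WT 2. At 2 gate genes Notch3 was at 40.6 CPM in N2KO 1 against 227 in WT 1 and 31.9 in N2KO 2 against 152 in WT 2, so its gap between genotypes was narrower among cells rich in gate genes. In cells with at least 4 gate genes the genotype test called 128 genes up and 149 down, and the log2 fold change was -1.02 for Notch3 and 3.63 for Cilp.

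The genotype effect was then compared between gated and other Ccl19-positive cells in 1 model. It differed for 246 of 14952 genes, 1.65% of those tested (0.890% up and 0.756% down; edgeR, each library a block, adjusted p under 0.05). For 224 of the 246 the gap between gated and other cells was smaller in N2KO than in WT, and among the 6547 genes at 20 CPM or more it was smaller in 67.0%. The median size of the gap over those genes was 0.16 in N2KO 1, 0.20 in WT 1, 0.11 in N2KO 2 and 0.18 in WT 2 on the log2 scale. The larger share of N2KO cells at the edge of the gate, given above, moves with this, and its part was not tested. DESeq2 called 76 genes, and against other cells with 0 gate genes edgeR called 128.

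**Figure D5:**
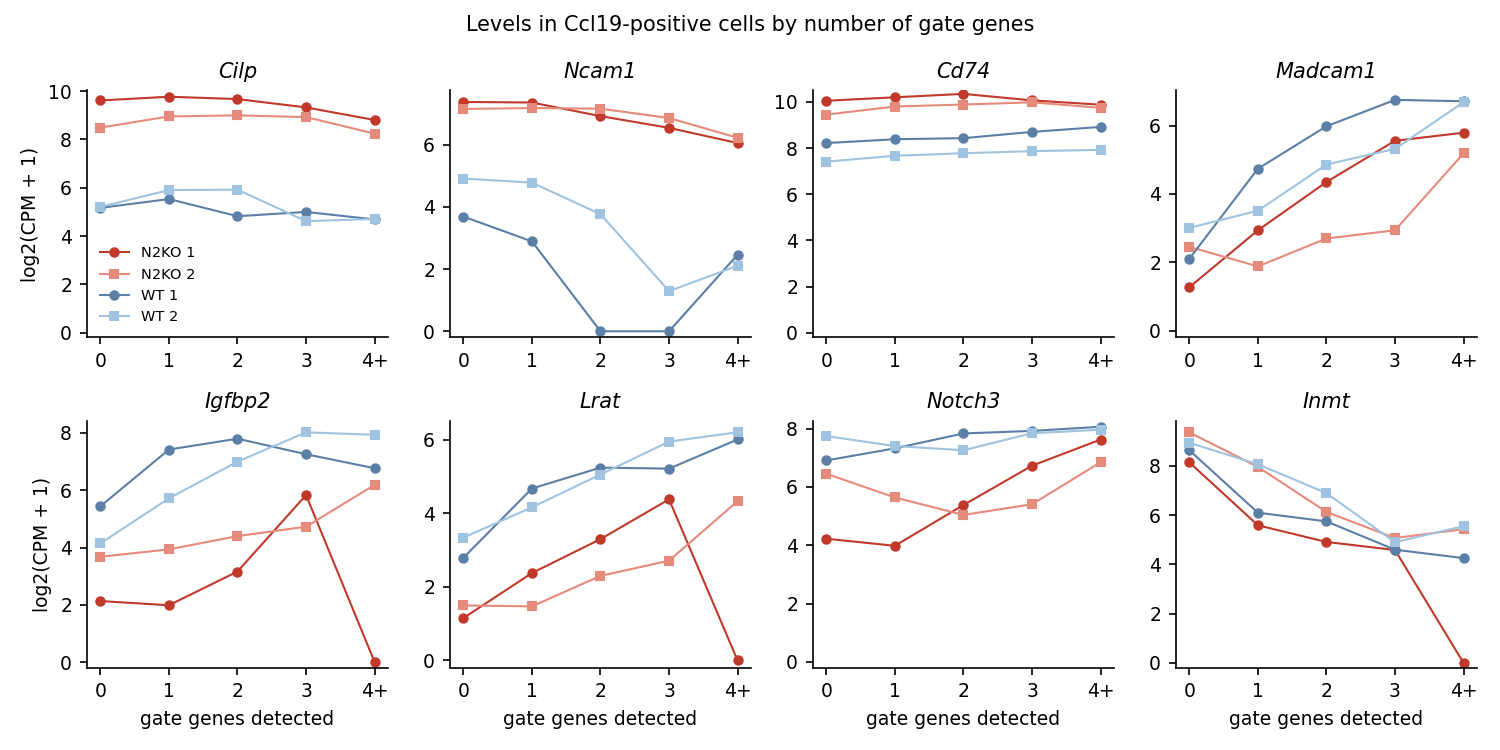
Levels (vertical axis, log2 of CPM + 1) of 8 genes in Ccl19-positive cells with 0, 1, 2, 3 or 4 and more gate genes (horizontal axis), 1 line per library, red N2KO and blue WT, circles batch 1 and squares batch 2. Cilp stays above 300 CPM at every step in both N2KO libraries and below 60 CPM in both WT libraries, and the last point of N2KO 1 rests on 18 cells.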

How the data were processed

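The authors deposited raw UMI counts of 32285 genes per cell barcode from 10x 3′ v3.1 libraries, 1 matrix per library. Per the file headers batch 1 was counted by Cell Ranger 5.0.1 and batch 2 by Cell Ranger 7.1.0. The submitters' processing notes name Cell Ranger 5.0.1 and mm10. Files held 0 columns of other samples. Library totals were 25644596 UMIs in N2KO 1, 21533049 in WT 1, 108144616 in N2KO 2 and 119002408 in WT 2, so batch 2 was deeper.

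Cells with at least 500 genes, at least 1000 UMIs and at most 10% mitochondrial UMIs were kept, the gate was applied and counts were summed per library and population. Gated sums held 1527643 UMIs in N2KO 1, 2793020 in WT 1, 11329207 in N2KO 2 and 9725569 in WT 2. Sums were tested with edgeR 4.0.16 (R 4.3.3; TMM, filterByExpr, glmQLFit, glmQLFTest). Batch was a block for genotype, and library was a block for gated against other cells and for the difference between their genotype effects. P-values were adjusted by Benjamini-Hochberg over all genes tested, gate genes apart. DESeq2 1.42.0 was an alternative. Tables were handled in Python 3.11.15 (numpy 2.4.6, pandas 2.3.3) and exact intervals came from scipy 1.17.1. The procedure was tested on simulated data.

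Same-numbered libraries share a batch per the labels, and their deviations from the group means correlated at 0.80 across genes at 20 CPM or more. With 2 libraries per genotype the blocked genotype test has 1 residual degree of freedom per gene before information is shared across genes. No doublet caller was run. Instead 2 alternatives left out the deepest cells, at 0.8% per 1000 cells, or cells with 2 or more UMIs of other lineages' markers. The marker rule left 36 of 353 gated cells in N2KO 1 and 98 of 987 in WT 1. In batch 2 it left 13 of 964 in N2KO 2 and 35 of 1182 in WT 2. Because it removed most gated cells, it does not serve as a check for doublets.

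Named were Notch2, 9 preset genes, the 10 largest called changes per direction with 1 sign in every batch or library and a mean of at least 20 CPM (5 for the difference test), predicted and ribosomal genes apart, and up to 3 called members of each gene list with the lowest adjusted p. Some named genes are not reported here. Values given for other list members were chosen after they were seen. The members of the gate and all gene lists were chosen with earlier results of these data known.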

Additional observations from a re-analysis of the deposited data

Results flagged for a closer look

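For 10 genes the genotype effect differed between gated and other Ccl19-positive cells by an interaction term (edgeR's quasi-likelihood test, Benjamini-Hochberg adjusted p under 0.05). Values are the N2KO over WT log2 fold change in gated cells minus that in other cells.

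In 5 genes the difference was positive. Fndc1, a fibronectin domain gene, differed by 2.69. It was at 32.1 CPM in N2KO 1 against 3.94 in WT 1 and 35.7 in N2KO 2 against 8.33 in WT 2 in gated cells, and at 23.3 in N2KO 1 against 6.82 in WT 1 and 22.3 in N2KO 2 against 41.7 in WT 2 in other cells. Smoc2 differed by 2.45 and Ncam1 by 1.92. In other cells Smoc2 was at 206 CPM in N2KO 1 against 15.6 in WT 1 and 73.4 in N2KO 2 against 21.2 in WT 2, so both populations moved the same way. Fbn2, a fibrillin, differed by 1.63 and Fhl2 by 1.55.

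In 5 genes the difference was negative. Aqp1, a water channel, differed by -1.79. It was at 544 CPM in N2KO 1 against 375 in WT 1 and 465 in N2KO 2 against 229 in WT 2 in gated cells, and at 406 in N2KO 1 against 103 in WT 1 and 283 in N2KO 2 against 33.5 in WT 2 in other cells. Tenm4 differed by -1.61, Lingo2 by -1.61, Ly6i by -1.57 and Fat3 by -1.54. DESeq2 did not call Tenm4, Lingo2 or Fat3. After thinning the calls for Smoc2, Fbn2, Fhl2 and Fat3 were lost. Without WT 2 those for Fhl2, Lingo2 and Fat3 were lost.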

How the results depend on the processing

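The genotype test called 372 genes, against 0 with no replicate block, 221 with DESeq2, 718 without TMM factors (median over all genes 0.09), 839 with no filter on low counts, 694 with Ccl19 at 2 UMIs or more, 168 after thinning to 1500 UMIs, 578 without the deepest cells and 0 to 2 with a library left out, fitted without the batch term. The test of gated against other cells called 2478, against 7 with no replicate block and 1293 to 2219 with a library left out (1293 without WT 2). The difference test called 246, against 0 with no replicate block (29 up and 24 down unadjusted), 76 with DESeq2, 376 with no filter, 865 with a population by batch term, 85 after thinning, 128 against cells with 0 gate genes, 430 in cells with Pdgfra, and 190 to 537 with a library left out (376 without WT 1 and 537 without WT 2). Without cells carrying other lineages' markers, which left 13 to 98 gated cells per library, the counts were 0 for genotype (79 up and 71 down unadjusted), 376 for gated against other cells and 0 for the difference (81 up and 128 down unadjusted). The settings of 4 or more gate genes and of Pdgfra-positive cells were chosen after seeing the data.

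The ratio of gate shares, N2KO over WT, was 0.414 in batch 1 and became 0.152, 0.175 and 0.254 after thinning to 1000, 1500 and 3000 UMIs and 0.245 with at least 3 gate genes. In batch 2 it was 1.09 and fell below 1 in every alternative run, at 0.356, 0.407 and 0.561 after thinning to those depths, 0.909 as a share of Ccl19-positive cells and 0.744 with at least 3 gate genes.

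Single genes changed sign in 10 cases. Leaving out other lineages' cells here means the marker rule, which removed most gated cells, so its results rest on few cells. For genotype these were Lingo2 (-0.05 without N2KO 2), Fabp4 (2.01 without WT 2), Pdpn (-0.15 after thinning and -1.16 without other lineages' cells) and Cxcl13 (-0.67 without WT 1 and -0.68 without N2KO 2). For gated against other cells they were Hes1 (-0.09 without N2KO 1), Heyl (-0.07 without WT 1) and Tnfsf11 (1.67 without other lineages' cells), and for the difference Lingo2 (0.89 without WT 2). Of 52 named genes called for genotype, all 52 lost the call with no replicate block and with any library left out, 13 after thinning, 13 with at least 4 gate genes, 12 without other lineages' cells and 7 with DESeq2. Of 54 called for gated against other cells, 50 lost it with no replicate block, 21 without other lineages' cells and 1 with DESeq2. Of 10 called for the difference, 10 lost it with no replicate block, 10 without other lineages' cells and 3 with DESeq2. Cxcl13 passed for genotype in 4 alternatives, also with no filter and without the deepest cells. With each library left out in turn, the genotype values of these genes ran from -0.05 to 7.78 for Lingo2, -9.03 to 2.01 for Fabp4 and -0.68 to 3.03 for Cxcl13, those of gated against other cells from -0.09 to 0.21 for Hes1 and -0.07 to 0.67 for Heyl, and the difference for Lingo2 from -2.03 to 0.89. The genotype fits with a library left out had no batch term, so they set libraries of unlike batches against each other. They do not show whether the difference within a batch changed sign. The cause of the other changes was not tested. Depth limits genes with few UMIs in the N2KO 1 gated sum.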

Other observations

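Single members of other gene groups passed in N2KO gated cells, where 1.52% of all genes tested rose and 1.36% fell. Of 9 vascular growth genes 2 rose, the peptide Apln (log2 2.63) and Vegfd (1.93), and 2 fell, Angpt2 (-1.50) and Pgf (-1.22) (edgeR, adjusted p under 0.05), with a median of 0.03. Vegfd and Angpt2 did not pass with DESeq2 or after thinning. Of 6 retinoid genes 2 fell, the retinoic acid synthesis gene Aldh1a3 (-2.05) and the degrading enzyme Cyp26b1 (-1.08), and neither passed in cells with at least 3 gate genes (-1.67 and -0.75). Cyp26b1 was not called by DESeq2. Fgf23, the phosphate hormone, was at 15.1 CPM in N2KO 1 against 1.79 in WT 1 and 59.9 in N2KO 2 against 7.51 in WT 2 (log2 2.90, edgeR adjusted p = 0.00112). Ccl11, the eosinophil chemokine eotaxin, fell by 1.63 on the log2 scale, with 105 CPM in N2KO 1 against 249 in WT 1 and 85.5 in N2KO 2 against 309 in WT 2, and did not pass in cells with at least 4 gate genes (-1.02). Ly6a, the stem cell antigen Sca-1, was at 189 CPM in N2KO 1 against 51.9 in WT 1 and 229.7 in N2KO 2 against 55.3 in WT 2 (log2 1.89, edgeR adjusted p = 0.00209). None of 11 interleukin 4, 13 and 1 receptor genes passed in edgeR's test.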
